A study of Mus musculus with 14 samples.

Results

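The comparison described here is between 3T3-L1 cells that carried a SETD5 virus and 3T3-L1 cells that carried an empty virus at the end of differentiation, at 96 and 192 h. 3T3-L1 is a mouse fibroblast line whose confluent cells become fat cells when given a hormone mixture. The study asked how SETD5, a protein with a SET domain that binds corepressor complexes of transcription, acts on this process. One line had been transduced with an empty retrovirus and the other with a retrovirus that expressed V5-tagged SETD5 from a weak LTR promoter. Each arm was 1 stably transduced line, so an effect of SETD5 cannot be told apart from any other difference between the 2 lines. Both lines received insulin (1 µg/ml), dexamethasone (0.25 µM) and isobutylmethylxanthine (0.5 mM) in medium with 10% serum for 48 h, and insulin alone afterwards, with fresh medium every 2 days. At 96 and 192 h both lines had therefore been without dexamethasone and isobutylmethylxanthine for some time. The comparison used 4 of the 14 arrays, 1 per virus at each of the 2 hours. The other 10 arrays, from 0 to 48 h, served to set the spread and to ask when a difference arose.

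Fat cell differentiation runs in steps. The hormone mixture first raises C/EBPβ and C/EBPδ, which lead to PPARγ and C/EBPα, and these switch on the genes of lipid storage, lipolysis and insulin-stimulated glucose uptake. Sterol and fatty acid synthesis are run by SREBP factors, and the mitochondria of fat cells burn branched-chain amino acids and supply citrate for lipid synthesis. At the same time preadipocytes give up part of their fibroblast character, with its actin stress fibres, fibronectin and secreted matrix. Lipid metabolism is therefore 1 side of the terminal state, and cytoskeleton, matrix, signalling and stress genes are the other.

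The array table named 18193 genes by 1 or more unique probe sets. Tests covered the 8682 genes that reached an intensity of 50 on 3 arrays or more. A gene above that level on no more than the 2 terminal arrays of 1 virus was not tested. Of the tested genes, 29 reached 50 on arrays of 1 virus only, so that they could pass only where they were high, and 18 of them are among the calls. Differences are log2 of the SETD5 array minus log2 of the empty array of the same hour, after 16 was added to each intensity. The terminal difference is the mean of those at 96 and 192 h, with limma's standard error (SE, n = 2 hours), and rose and fell mean higher and lower with the SETD5 virus, not a change over time. Where an intensity lies under 50 its fold depends in part on the 16 added. Pairs of intensities are given in the order 96 h, 192 h. On the 14 arrays 88.4% to 93.8% of tested genes were at 50 or more. The main Setd5 probe set gave 356 and 286 in the empty virus line and 350.1 and 321 in the SETD5 line, a difference of 0.07 ± 0.11, adjusted p = 0.684, and the other 2 Setd5 probe sets were not called either (0.37 ± 0.14, adjusted p = 0.0838, and 0.10 ± 0.30, adjusted p = 0.84). Where these probe sets lie relative to the sequence in the virus was not known, so they do not check the label. Of 45 markers of macrophages, endothelium, skeletal muscle, cartilage and bone, and epithelium on the array, 2 reached 50 on any of the 4 arrays, 1 of macrophages and 1 of muscle. Their summed intensity ranged from 21.5 to 182 per list and array, and macrophage markers summed to 84.2 and 92.8 with the empty virus against 131.9 and 182 with the SETD5 virus.

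The terminal state differed widely between the lines. Most tested genes of lipid storage, sterol synthesis, fatty acid oxidation and branched-chain amino acid breakdown fell. On the lists of the actin cytoskeleton, matrix, Wnt pathway and TGF-beta pathway more genes rose than fell, though many were not called. Of the tested genes, 2367 (27.3%) were called at an adjusted p under 0.05, of which 1373 rose (15.8%) and 994 fell (11.4%). The median over all tested genes was 0.08. The falls were larger: among called genes 214 were at least 2-fold lower and 85 at least 2-fold higher, 36 were at least 4-fold lower and 0 at least 4-fold higher. Both hours had the same sign in 70.9% of tested genes, and 118 genes were at least 2-fold lower at both hours (1.36%) against 39 at least 2-fold higher (0.449%). The difference was larger at 192 h, when 393 genes were 2-fold lower and 228 were 2-fold higher, than at 96 h, when these counts were 145 and 62. The correlation of log2 intensities between the viruses over genes, which are not independent replicates, was 0.966 at 96 h and 0.931 at 192 h, against 0.981 to 0.992 at 0 to 48 h.

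These calls lean on the spread of the virus difference between hours, since no hour had a replicate. Without the 192 h pair 280 genes rose and 373 fell, and 519 calls, 228 rises and 291 falls, held when each hour was left out in turn. With the arrays scaled to a common median, 1021 genes rose and 1149 fell, so the share of calls that rose moved from 58.0% to 47.1%.

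**Figure D1:**
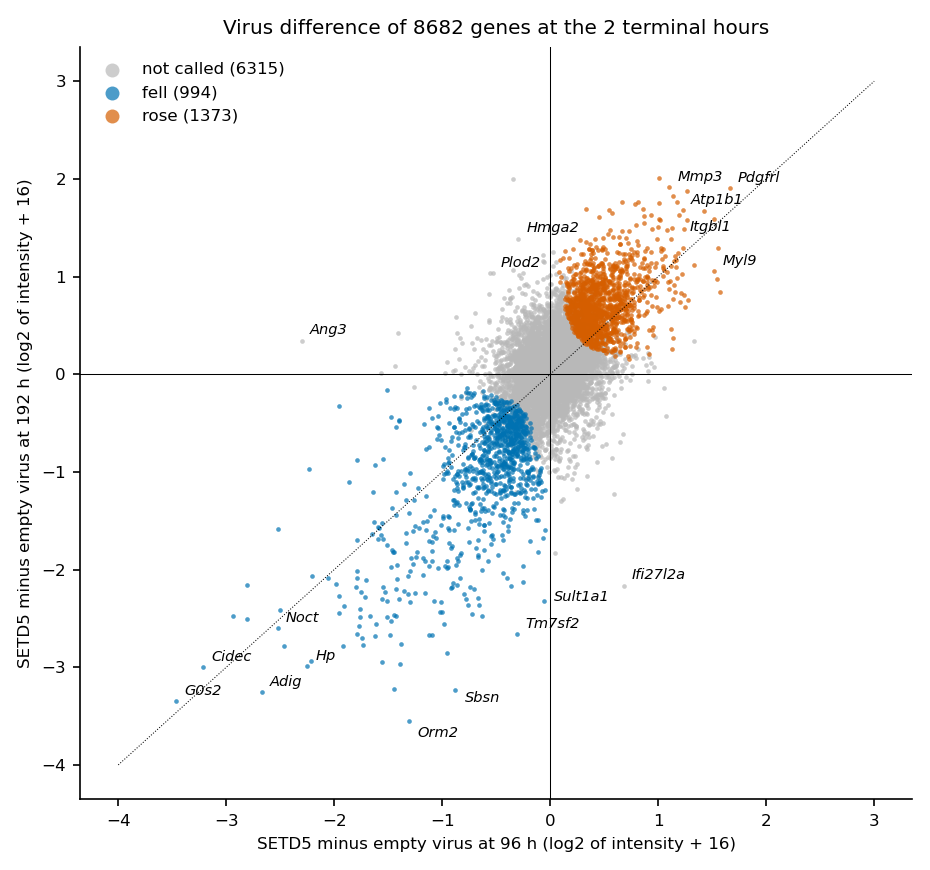
SETD5 minus empty virus difference of 8682 tested genes at 96 h (horizontal axis) and 192 h (vertical axis), both on the log2 scale after 16 was added to each intensity. Each point is a gene, orange where it rose (1373), blue where it fell (994) and grey where it was not called. The dotted line marks equal differences, and more points lie beyond 2-fold on the vertical axis than on the horizontal one.

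The largest falls were those of G0s2, Cidec and Adig. G0s2, an inhibitor of the lipase ATGL, had 623 and 1478 with the empty virus against 41.7 and 131 with SETD5 (-3.41 ± 0.24, adjusted p = 4.05e-05). Cidec, a lipid droplet protein that lets droplets fuse, had 1663.5 and 4115 with the empty virus and 165 and 499 with the SETD5 virus (-3.11 ± 0.27, adjusted p = 8.62e-05). Adig, a small fat cell membrane protein, had 334 and 1326 in the empty virus line and 38.9 and 125 in the SETD5 line (-2.96 ± 0.15, adjusted p = 1.79e-05). For each of these 3 genes both SETD5 arrays lay below both empty arrays, and intensities still went up from 96 to 192 h in both lines. The 15 largest falls and 15 largest rises did not overlap either, but they were chosen by size and sign on these arrays, which nearly fixes this. Over all tested genes both SETD5 arrays were lower than both empty arrays in 18.9% and higher in 29.9%. In bulk RNA a smaller share of cells that became fat cells and less of an mRNA in each cell cannot be told apart.

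Of 29 listed adipocyte markers 26 were on the array and 17 were tested. All 17 fell and 0 rose, with a median of -2.06, and 13 of these calls held without each hour in turn. Insulin-responsive glucose transport and lipolysis were among them. Slc2a4, which encodes the transporter GLUT4, had 75 and 334 with the empty virus against 18.4 and 54.9 with SETD5 (-1.85 ± 0.18, adjusted p = 0.000156). Pnpla2, the lipase ATGL, had 476 and 1098 with the empty virus and 129 and 194 with the SETD5 virus (-2.08 ± 0.16, adjusted p = 5.4e-05). Lipe, hormone-sensitive lipase, had 183.5 and 557 in the empty virus line and 42.8 and 86.4 in the SETD5 line (-2.12 ± 0.20, adjusted p = 0.000128). Cd36, a fatty acid transporter, had 1163 and 4403 with the empty virus against 239.5 and 1042 with SETD5 (-2.13 ± 0.20, adjusted p = 0.000124). From 0 to 192 h the median marker climbed by 5.95 on the log2 scale with the empty virus and by 2.62 with the SETD5 virus, so the markers were induced in both lines and less far with SETD5.

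Of 13 tested genes of triglyceride assembly, 11 fell and 0 rose, with a median of -1.90. Dgat2, the enzyme of the last step, had 1148 and 1359.9 with the empty virus and 149.9 and 227 with the SETD5 virus (-2.66 ± 0.18, adjusted p = 3.3e-05). Gpd1, which makes glycerol phosphate, had 439 and 2402 in the empty virus line and 66.2 and 336 in the SETD5 line (-2.62 ± 0.16, adjusted p = 2.37e-05). Gpat3, which adds the first fatty acid, had 572.5 and 1292 with the empty virus against 88 and 229.9 with SETD5 (-2.46 ± 0.19, adjusted p = 5.52e-05). Fatty acid synthesis fell less evenly, 11 of 17 genes lower and 1 higher, with a median of -0.89. Thrsp, a regulator of lipid synthesis, had 2616 and 3919.8 with the empty virus and 328 and 694 with the SETD5 virus (-2.70 ± 0.17, adjusted p = 2.37e-05). Fasn, fatty acid synthase, had 1454 and 2751 in the empty virus line and 416 and 446.5 in the SETD5 line (-2.17 ± 0.19, adjusted p = 9.02e-05). Elovl6, a fatty acid elongase, was the gene that rose, from 80.5 and 31.8 with the empty virus to 104 and 80.1 with SETD5 (0.66 ± 0.16, adjusted p = 0.0146, 0.28 without the 192 h pair).

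**Figure D2:**
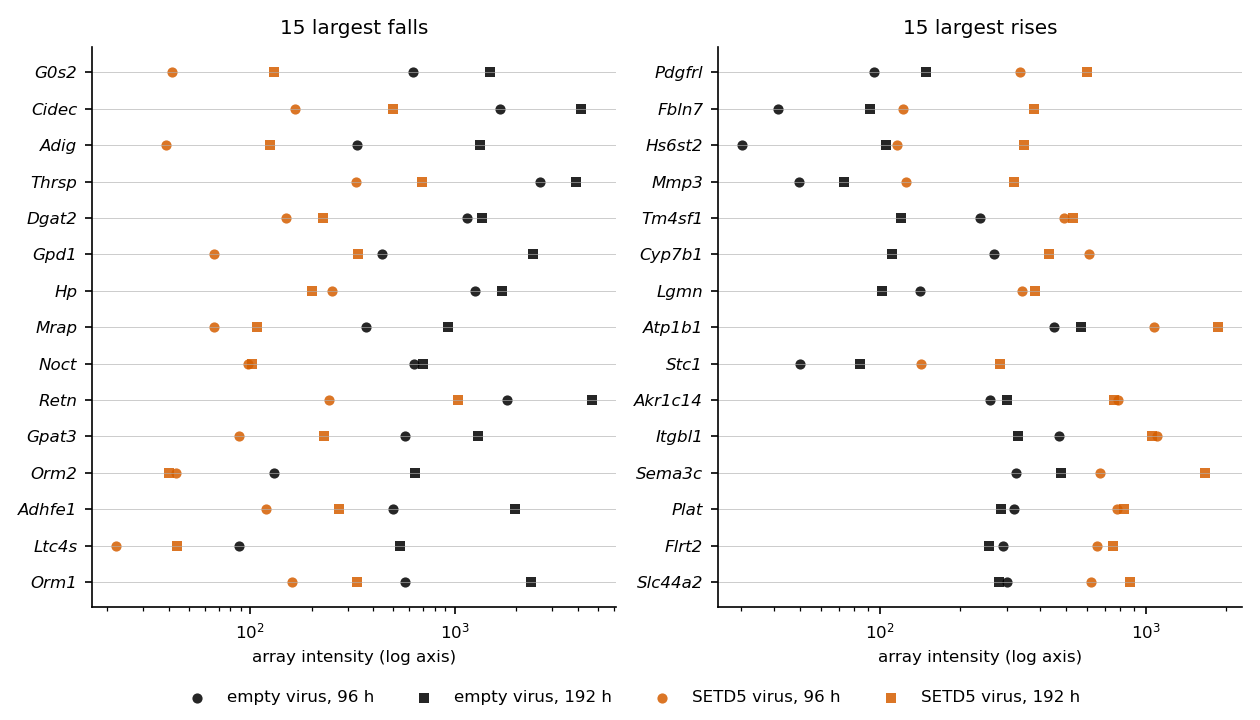
Intensity on a log axis of the 15 genes with the largest terminal falls (left) and the 15 with the largest terminal rises (right) on the 4 arrays of 96 and 192 h. Circles mark 96 h, squares 192 h, black the empty virus and orange the SETD5 virus. For every gene shown the 2 orange points lie on the same side of the 2 black points.

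Among the transcription factors of fat cell formation the late and the early ones differed. Pparg, the receptor that drives terminal differentiation, had 817 and 1694.5 with the empty virus against 256 and 274 with SETD5 (-2.09 ± 0.23, adjusted p = 0.000295), so it about doubled from 96 to 192 h with the empty virus and hardly moved with SETD5. Cebpa had 144 and 230.3 with the empty virus and 38.7 and 60.6 with the SETD5 virus (-1.62 ± 0.24, adjusted p = 0.00133). Klf15, a factor of mature fat cells, had 62.4 and 551 in the empty virus line and 13.8 and 56.7 in the SETD5 line (-2.18 ± 0.27, adjusted p = 0.000561). Ppargc1b, a coactivator of mitochondrial genes, had 193 and 402 with the empty virus against 62.4 and 92.2 with SETD5 (-1.68 ± 0.18, adjusted p = 0.000245). The late factors were thus lower on both SETD5 arrays than on both empty arrays, as were 18.9% of all tested genes. Cebpb, an early factor, differed by -0.42 ± 0.12, adjusted p = 0.0282, 0.296 without the 192 h pair, and Cebpd, the other early factor, by 0.52 ± 0.14, adjusted p = 0.0201, 0.307 without the 192 h pair, and neither call held on 96 h alone or with no filter. The Cebpb call was also lost under quantile normalization and with the 4 terminal arrays alone, and the other Cebpb probe set differed by -0.07 ± 0.11. Klf4, which acts at the start of the cascade, rose from 385 and 400 with the empty virus to 618 and 602 with SETD5 (0.62 ± 0.12, adjusted p = 0.00605). In all, 8 of 18 tested factors fell and 3 rose (44.4% and 16.7%), with a median of -0.17. Over all tested genes 11.4% fell and 15.8% rose, so the share of factors that rose lay near the latter. The study followed Pparg, Cebpa, Cebpb, Cebpd and Cd36 itself, so they are not independent evidence.

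Cholesterol genes fell together, and further at 192 h than at 96 h. Of 19 tested genes of cholesterol synthesis and uptake, 17 fell and 0 rose. The median difference was -0.66 at 96 h and -1.87 at 192 h, and for 11 of the 19 the difference was lower at 192 h than at 96 h by the test of that difference, which called 1.04% of all tested genes lower. All 11 of these calls were lost with an offset of 4 and with no filter, where limma called 0 genes lower (559 and 1025 at an unadjusted p under 0.05). Fdps, farnesyl diphosphate synthase, had 482 and 1351 with the empty virus and 229.7 and 237.5 with the SETD5 virus (-1.73 ± 0.25, adjusted p = 0.0013). Msmo1, a sterol oxidase, had 853 and 2312 in the empty virus line and 491 and 457 in the SETD5 line (-1.54 ± 0.27, adjusted p = 0.00333). Insig1, the sterol sensor partner, had 459.7 and 1334 with the empty virus against 177 and 253 with SETD5 (-1.81 ± 0.22, adjusted p = 0.000519). With the empty virus 17 of the 19 genes were higher at 192 h than at 96 h, and with SETD5 7 were. Of the 17 calls, 8 were lost without the 192 h pair.

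The sterol regulatory element is the DNA word that SREBP factors read. A search of RefSeq promoters, 250 bases before to 50 after each start on GRCm38.p6, for its letters TCACNCCAC on both strands found it in 1.24% of 32851 promoters and in 1 of 18 promoters of the cholesterol genes, that of Hmgcs1, the synthase of the first sterol step. The stretch around it is shown because it is the match in this list, with the element in capitals.
Hmgcs1, chr13:119690189-119690247, plus strand: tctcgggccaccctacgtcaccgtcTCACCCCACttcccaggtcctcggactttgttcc
Hmgcs1 itself had 1487 and 2805 with the empty virus and 1096.5 and 1069 with the SETD5 virus (-0.91 ± 0.18, adjusted p = 0.00554, 0.0906 without the 192 h pair). A match is a description of letters and not a site. Of the 19 tested genes 15 had a promoter in the table.

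The medians of all 5 mitochondrial lists were below 0. Of 22 tested genes of the tricarboxylic acid cycle and pyruvate entry 17 fell and 0 rose (median -0.73). Pcx, pyruvate carboxylase, which refills the cycle for lipid synthesis, had 1645 and 2876 in the empty virus line and 506 and 503 in the SETD5 line (-2.07 ± 0.18, adjusted p = 8.57e-05). Idh3a, a subunit of isocitrate dehydrogenase, had 1724 and 2311 with the empty virus against 673 and 739 with SETD5 (-1.48 ± 0.16, adjusted p = 0.000256). In breakdown of branched-chain amino acids 16 of 18 genes fell and 1 rose (median -0.86). Dbt and Bckdhb encode parts of the branched-chain ketoacid dehydrogenase, the committed step. Dbt had 270.2 and 646.5 with the empty virus and 126 and 115 with the SETD5 virus (-1.68 ± 0.23, adjusted p = 0.000984). Bckdhb had 808 and 1521.5 in the empty virus line and 256 and 462.5 in the SETD5 line (-1.64 ± 0.14, adjusted p = 8.57e-05). Bcat1, the cytosolic transaminase, was the 1 that rose, at low intensities (33.1 and 11.1 with the empty virus against 50.8 and 34.2 with SETD5, 0.67 ± 0.22, adjusted p = 0.0477, and 0.0622, 0.0709, 0.0502 and 0.399 without the 0, 12, 24 or 192 h pair).

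In fatty acid oxidation and peroxisomes 19 of 27 genes fell and 1 rose (median -0.63), led by the peroxisome gene Pex11a with 483 and 746.5 with the empty virus and 159.6 and 136 with the SETD5 virus (-1.92 ± 0.18, adjusted p = 0.000127). The respiratory chain had a smaller median, 39 of 71 genes lower and 0 higher (median -0.42), and of those 39 calls 36 were lost without the 192 h pair. Cycs, cytochrome c, was the largest of them with 4439.9 and 4915 in the empty virus line and 2294 and 1783 in the SETD5 line (-1.20 ± 0.13, adjusted p = 0.000321). Of 73 mitochondrial ribosome genes 29 fell and 0 rose (median -0.32), and 24 of these calls were lost without the 192 h pair.

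Glycolysis and glycogen genes fell in 11 of 19 cases and rose in 1, with a median of -0.51. Hk2, hexokinase 2, had 575 and 566.5 with the empty virus against 199 and 209.8 with SETD5 (-1.41 ± 0.12, adjusted p = 8.57e-05). Gys1, a glycogen synthase, had 139 and 78.8 with the empty virus and 45.3 and 22.8 with the SETD5 virus (-1.31 ± 0.11, adjusted p = 8.57e-05). The gene that rose was Slc2a1, the GLUT1 transporter of undifferentiated cells, with 652 and 579 in the empty virus line and 759.6 and 1044 in the SETD5 line (0.52 ± 0.15, adjusted p = 0.028, 0.444 without the 192 h pair). Its direction was opposite to that of Slc2a4.

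Hypoxia targets fell too, 8 of 13 genes lower and 1 higher, with a median of -0.65 and about equal medians at both hours (-0.71 and -0.62). Bnip3, a mitophagy receptor, had 1549.9 and 2540.2 with the empty virus against 676 and 597 with SETD5 (-1.62 ± 0.18, adjusted p = 0.00026). Egln3, an oxygen-sensing prolyl hydroxylase, had 242 and 223.5 with the empty virus and 99.2 and 47.5 with the SETD5 virus (-1.54 ± 0.18, adjusted p = 0.000416). Ero1a, an oxidase of the endoplasmic reticulum, had 541 and 323 in the empty virus line and 165 and 163 in the SETD5 line (-1.27 ± 0.16, adjusted p = 0.000561). Vegfa, the angiogenic growth factor, had 331 and 387 with the empty virus against 183 and 225 with SETD5 (-0.77 ± 0.11, adjusted p = 0.0013). Ndrg1, a stress gene on the same list, went the other way with 79.7 and 53 with the empty virus and 137 and 114 with the SETD5 virus (0.80 ± 0.12, adjusted p = 0.00157).

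**Figure D3:**
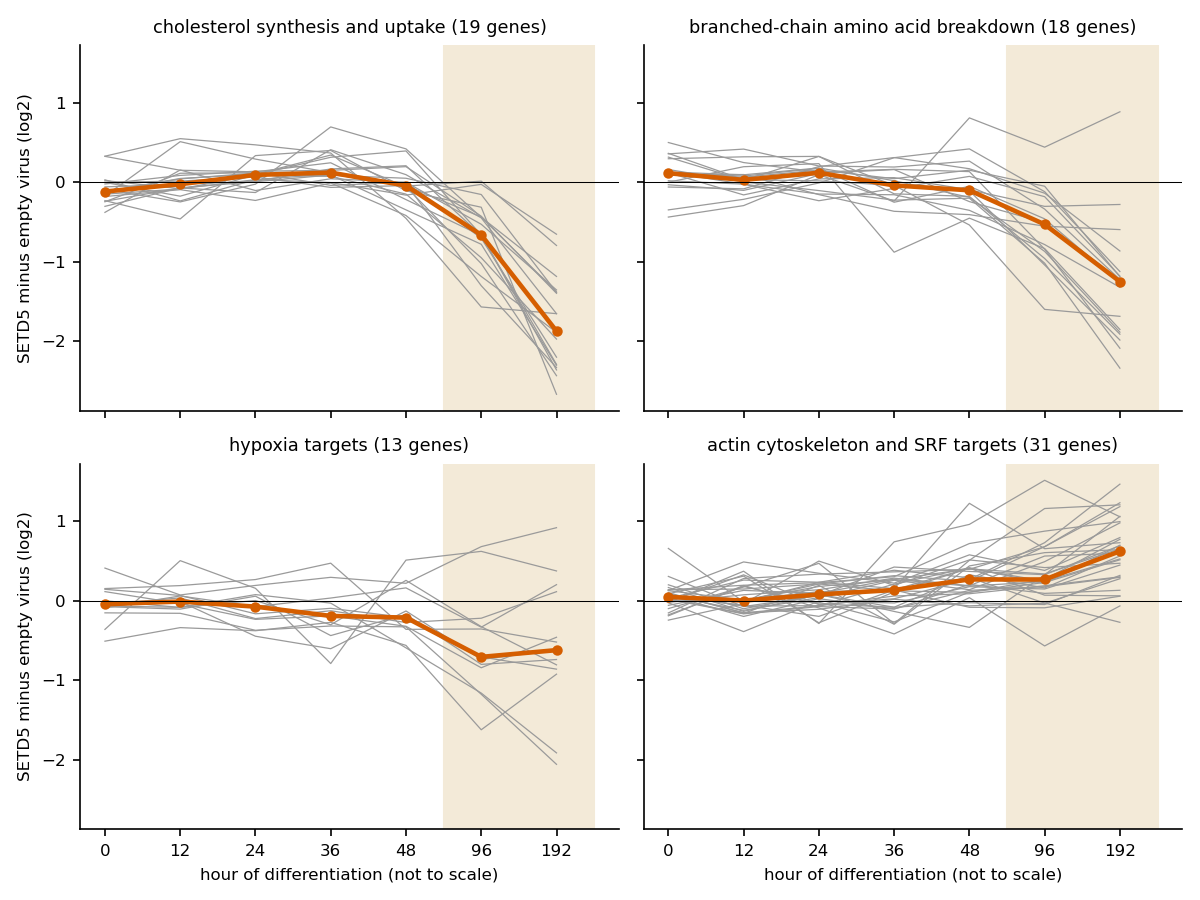
SETD5 minus empty virus difference (log2, vertical axis) at each of the 7 hours (horizontal axis, evenly spaced) for the tested genes of 4 lists. Grey lines are genes, the orange line is the list's median and the shaded band marks 96 and 192 h. The cholesterol median goes from -0.04 at 48 h to -0.66 and -1.87, while the hypoxia median is about the same at both terminal hours.

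Of the tested genes, 8368 were on none of the lipid, mitochondrial and carbohydrate lists. Of these, 1366 rose and 799 fell (16.3% and 9.55%), with a median of 0.09. The lists do not hold every such gene, so this remainder still includes some, such as the mitochondrial Adhfe1. On those 3 classes of list 7 of 314 genes rose and 195 fell, with a median of -0.53.

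The 10 largest falls outside these lists included acute phase genes and genes of steroid biology. Hp, the plasma protein haptoglobin, had 1252 and 1706 in the empty virus line and 250 and 201 in the SETD5 line (-2.62 ± 0.17, adjusted p = 2.37e-05). Orm1 and Orm2 encode acute phase glycoproteins. Orm1 had 572 and 2356 with the empty virus against 161 and 331.5 with SETD5 (-2.25 ± 0.19, adjusted p = 8.57e-05). Orm2 had 130.2 and 641.5 with the empty virus and 43.2 and 40.3 with the SETD5 virus (-2.43 ± 0.37, adjusted p = 0.00173). The 2 Orm genes are close paralogs whose probes may share signal. Hsd11b1, which regenerates active glucocorticoid, had 406 and 1353 in the empty virus line and 106 and 201 in the SETD5 line (-2.22 ± 0.22, adjusted p = 0.000156). Mrap, a partner of the corticotropin receptor, had 368 and 931 with the empty virus against 66.9 and 108 with SETD5 (-2.57 ± 0.25, adjusted p = 0.000161).

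Noct, which encodes nocturnin, a circadian phosphatase, had 634.5 and 698 with the empty virus and 97.1 and 102 with the SETD5 virus (-2.56 ± 0.14, adjusted p = 1.79e-05), so both SETD5 arrays were near that line's 0 h intensity of 93.9. Slc1a3, a glutamate transporter, had 202 and 660 in the empty virus line and 49 and 87.9 in the SETD5 line (-2.22 ± 0.20, adjusted p = 0.000124). Anxa8, an annexin, had 401 and 401 with the empty virus against 91.4 and 60.5 with SETD5 (-2.20 ± 0.23, adjusted p = 0.000226). Ltc4s, leukotriene C4 synthase, had 87.7 and 541 with the empty virus and 22 and 43.7 with the SETD5 virus. Adhfe1, an alcohol dehydrogenase of mitochondria, had 496.5 and 1959.7 in the empty virus line and 119 and 272 in the SETD5 line (-2.35 ± 0.21, adjusted p = 9.19e-05). Ltc4s was at 50 or more on 3 empty arrays and on 0 SETD5 arrays, so it was tested only through the line where it is high, and its test is not given.

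The 15 largest rises were of genes with varied roles. Pdgfrl, a PDGF receptor-like protein, had 95 and 149 with the empty virus against 335 and 600.4 with SETD5 (1.78 ± 0.13, adjusted p = 4.9e-05). Fbln7, a fibulin, had 41.1 and 91.9 with the empty virus and 122 and 379.7 with the SETD5 virus (1.57 ± 0.22, adjusted p = 0.000986). Hs6st2, which sulphates heparan chains, had 30.1 and 105 in the empty virus line and 116 and 347 in the SETD5 line (1.55 ± 0.15, adjusted p = 0.000162). Stc1, the secreted glycoprotein stanniocalcin, had 50 and 84 with the empty virus against 143 and 283 with SETD5 (1.42 ± 0.13, adjusted p = 0.000122). For each of these 4 genes at least 1 empty array was under 100, so the rises start from low intensities.

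At higher intensities, Atp1b1, a subunit of the sodium pump, had 449.6 and 571 with the empty virus and 1073.5 and 1868 with the SETD5 virus (1.45 ± 0.14, adjusted p = 0.000143). Akr1c14, a steroid reductase, had 258 and 301 in the empty virus line and 786.5 and 759 in the SETD5 line (1.42 ± 0.25, adjusted p = 0.00341). Cyp7b1, an oxysterol hydroxylase, had 268 and 110.5 with the empty virus against 608 and 432 with SETD5 (1.48 ± 0.17, adjusted p = 0.000358). Tm4sf1, a membrane protein of migrating cells, had 237 and 119.9 with the empty virus and 493 and 530.5 with the SETD5 virus (1.51 ± 0.19, adjusted p = 0.000717). Sema3c, a guidance protein, had 325 and 481 in the empty virus line and 669.7 and 1661 in the SETD5 line (1.38 ± 0.19, adjusted p = 0.000801). Plat, Flrt2, Slc44a2, Itgbl1, Lgmn and Mmp3 make up the rest of the 15, with differences from 1.30 for Slc44a2 to 1.51 for Mmp3.

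Actin cytoskeleton genes and targets of SRF, the serum response factor, rose in 18 of 31 cases and fell in 0, with a median of 0.46, and 6 of the 18 calls held without each hour. Myl9, a smooth muscle myosin light chain, had 32.2 and 404 with the empty virus against 122 and 857 with SETD5 (1.28 ± 0.16, adjusted p = 0.000702). Tpm1, a tropomyosin, had 345 and 788 with the empty virus and 646 and 1586 with the SETD5 virus (0.93 ± 0.12, adjusted p = 0.000729). Ccn1, a secreted SRF and YAP target, had 260.1 and 163 in the empty virus line and 601 and 398 in the SETD5 line (1.18 ± 0.18, adjusted p = 0.00175). Tagln2, a transgelin, had 147 and 77.9 with the empty virus against 254 and 243 with SETD5 (1.10 ± 0.17, adjusted p = 0.00176). Myl9 and Tpm1 climbed from 96 to 192 h in both lines, so their arrays overlap across hours, whereas those of Ccn1 and Tagln2 do not. Over all tested genes 29.9% had both SETD5 arrays above both empty arrays. Acta2, smooth muscle actin, differed by 0.69 ± 0.20, adjusted p = 0.0283, 0.0789 without the 96 h pair and 0.194 without the 192 h pair, with 537.5 and 2365 with the empty virus and 855 and 3931 with the SETD5 virus. Srf itself rose from 60.3 and 123.5 to 96.6 and 195 (0.58 ± 0.11, adjusted p = 0.00383). From 0 to 192 h the list's median dropped by 0.66 on the log2 scale with the empty virus and by 0.04 with SETD5.

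SRF reads the CArG box. In the RefSeq promoters on GRCm38.p6 the box was found on either strand in 1.63% of 32851 promoters and in the promoters of 9 of the 28 tested actin and SRF genes that had one in the table. The list was drawn up in part from known SRF targets, so this share describes the list. Of these 9 genes 4 rose, namely Myl9, Cnn2, Filip1l and Srf, and of the 19 without the box 12 rose, so the list's rises were not confined to promoters with this match. Of all 111 tested genes with the box 29 rose (26.1%) and 9 fell, against 15.8% and 11.4% of all tested genes. The stretches below, with each CArG box in capitals, are shown to set 4 genes that rose beside 3 that were not called.
Myl9, chr2:156775278-156775337, plus strand: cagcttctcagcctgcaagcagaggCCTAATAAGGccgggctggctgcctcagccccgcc
Cnn2, chr10:79988519-79988578, plus strand: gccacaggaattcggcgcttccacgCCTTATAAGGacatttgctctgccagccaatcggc
Filip1l, chr16:57549155-57549214, plus strand: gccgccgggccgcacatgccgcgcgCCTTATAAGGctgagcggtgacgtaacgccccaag
Srf, chr17:46556190-46556269, minus strand: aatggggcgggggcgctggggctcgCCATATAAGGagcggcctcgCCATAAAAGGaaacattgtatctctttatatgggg
Vcl, chr14:20929148-20929205, plus strand: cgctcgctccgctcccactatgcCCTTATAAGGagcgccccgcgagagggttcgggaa
Actg1, chr11:120348551-120348610, minus strand: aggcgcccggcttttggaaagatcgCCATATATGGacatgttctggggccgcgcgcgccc
Myl6, chr10:128493025-128493084, minus strand: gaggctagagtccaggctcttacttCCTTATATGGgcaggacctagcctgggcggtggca
The last 3 are the promoters of vinculin, cytoplasmic gamma actin and a myosin light chain, whose terminal differences were 0.11 ± 0.12, adjusted p = 0.516 for Vcl, 0.24 ± 0.11, adjusted p = 0.128 for Actg1 and 0.06 ± 0.11, adjusted p = 0.707 for Myl6. The box lies from 50 bases (Myl6) to 227 bases (Vcl) before the start, and Cnn2, Filip1l and Vcl carry the same 10 letters in it. Cnn2 differed by 0.62 ± 0.16, adjusted p = 0.0186, 0.0594 without the 96 h pair and 0.143 without the 192 h pair and Filip1l by 0.93 ± 0.13, adjusted p = 0.0011.

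Genes of preadipocytes and of factors that hold back fat cell formation rose in 13 of 23 cases and fell in 1, with a median of 0.44. Id2 and Id4 encode partners that block helix-loop-helix factors. Id2 had 48 and 73.2 in the empty virus line and 101 and 259 in the SETD5 line (1.25 ± 0.18, adjusted p = 0.0013). Id4 had 289 and 142 with the empty virus against 589 and 397 with SETD5 (1.19 ± 0.21, adjusted p = 0.0036, 0.0716 without the 192 h pair). Nr2f1, a nuclear receptor, had 132 and 97.2 with the empty virus and 228 and 169 with the SETD5 virus (0.71 ± 0.11, adjusted p = 0.00207). Dlk1, the preadipocyte protein Pref-1, was abundant in both lines and still rose, with 719 and 1813 in the empty virus line and 1123 and 2773 in the SETD5 line (0.62 ± 0.12, adjusted p = 0.00424). The gene that fell, Rgs2, had 2466 and 1783 with the empty virus against 1602 and 599 with SETD5 (-1.08 ± 0.18, adjusted p = 0.00233), and Rgs2 is known to help fat cell formation although it stands on this list. Of the 14 calls, 9 were lost without the 192 h pair.

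Matrix genes rose in part, where over all tested genes 15.8% rose and 11.4% fell. Of 35 tested glycoproteins and proteoglycans 20 rose and 1 fell (median 0.50). Ogn, the proteoglycan osteoglycin, had 1325 and 2569 with the empty virus and 3965.5 and 4625 with the SETD5 virus (1.21 ± 0.20, adjusted p = 0.00269). Mgp, matrix Gla protein, had 1329.6 and 437 in the empty virus line and 2117 and 1516 in the SETD5 line (1.21 ± 0.20, adjusted p = 0.00246). Mfap5, a microfibril protein, had 29.3 and 40.9 with the empty virus against 66 and 168 with SETD5. Mfap5 and Fbln1, both among the 20, were at 50 or more on SETD5 arrays only, so their tests are not given. Lum, the proteoglycan lumican, fell and had 843 and 2409 with the empty virus and 355 and 798.5 with the SETD5 virus (-1.39 ± 0.23, adjusted p = 0.00244). Lumican was lower with SETD5 at 0 h as well, at 259.8 against 115, and its terminal difference did not differ from the early one by test (-0.45 ± 0.30, adjusted p = 0.356). Among collagens and their enzymes fewer calls were made, 9 of 29 higher and 2 lower (median 0.31), and 0 of these 11 calls held without each hour.

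Among matrix proteases and inhibitors 12 of 26 rose and 2 fell (median 0.41), beside 15.8% and 11.4% over all tested genes. Mmp3, stromelysin, had 49.6 and 72.8 in the empty virus line and 124.5 and 319 in the SETD5 line (1.51 ± 0.23, adjusted p = 0.00175). Plat, tissue plasminogen activator, had 319 and 284 with the empty virus against 775 and 826.5 with SETD5 (1.36 ± 0.16, adjusted p = 0.000499). Timp2, an inhibitor of such proteases, had 1593.5 and 1651 with the empty virus and 2632 and 3728 with the SETD5 virus (0.94 ± 0.13, adjusted p = 0.000801). Enzymes and inhibitors both rose. Lysosome genes rose in 12 of 34 cases and fell in 0 (median 0.26), and 11 of these calls were lost without the 192 h pair. Lgmn, the lysosomal protease legumain, held, with 141.5 and 102 in the empty virus line and 340.4 and 383 in the SETD5 line (1.47 ± 0.15, adjusted p = 0.000163).

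**Figure D4:**
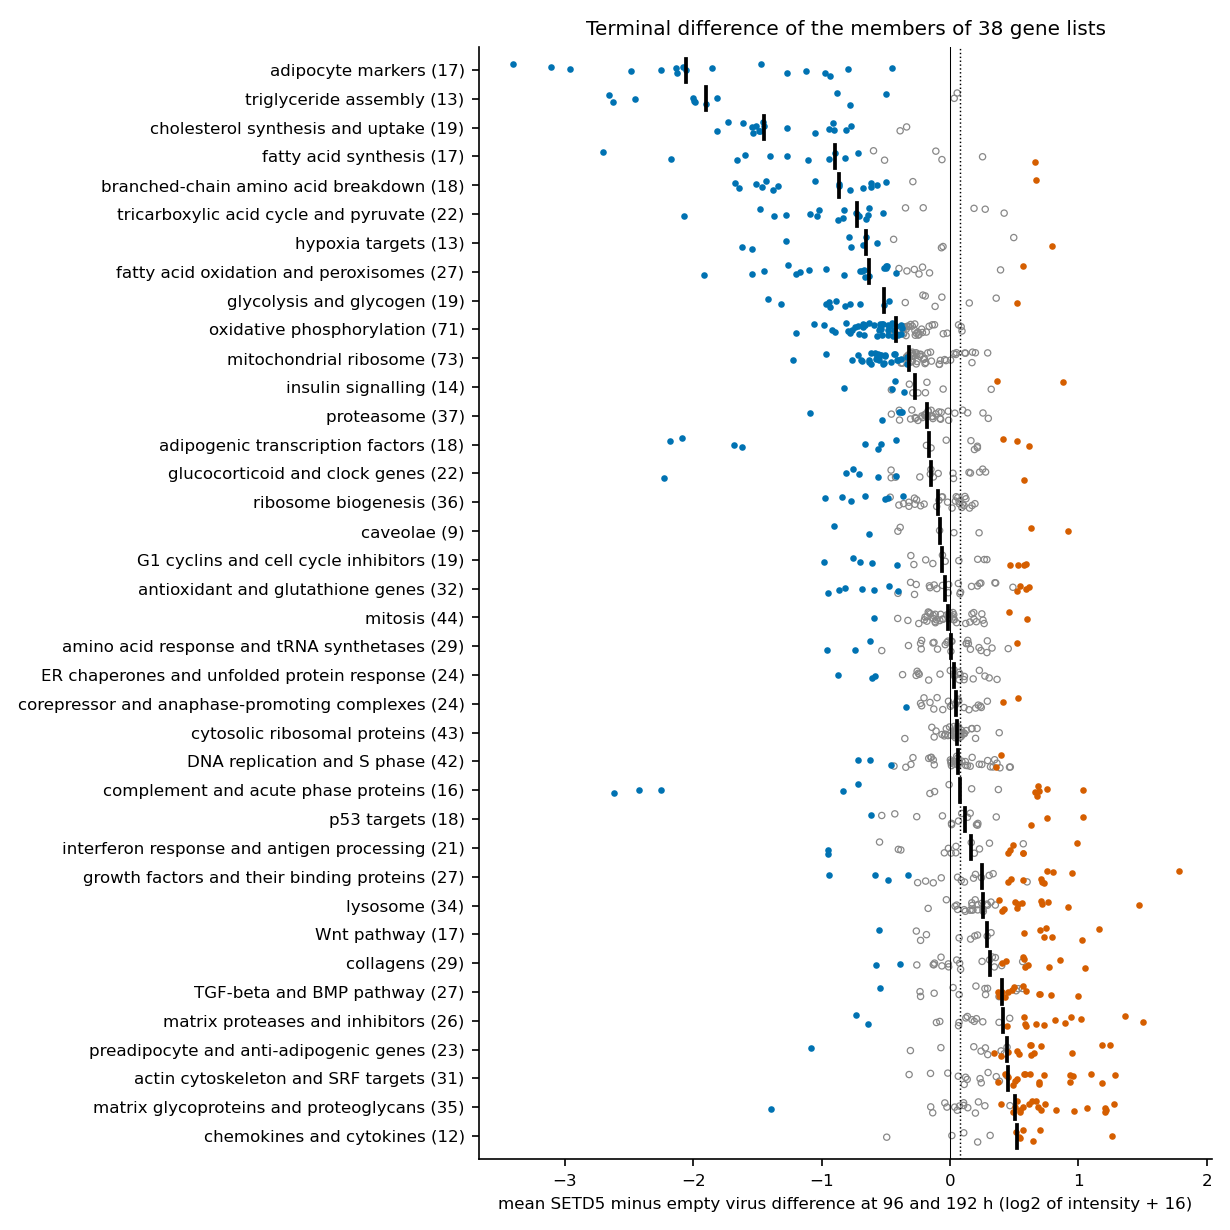
Terminal SETD5 minus empty virus difference (log2, horizontal axis) of each tested gene in 38 gene lists, ordered by list median, with the number of tested genes in brackets. Orange points rose, blue points fell, open points were not called, the black bar is the list's median and the dotted line is the median of all tested genes (0.08). The adipocyte markers lie farthest left (median -2.06) and the chemokines and cytokines farthest right (0.53).

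Signalling genes moved in both directions, with more rises, where over all tested genes 15.8% rose and 11.4% fell. In the TGF-beta and BMP pathway 13 of 27 genes rose and 1 fell (median 0.41), and 12 of these 14 calls were lost without the 192 h pair. Smad1, a BMP signal carrier, held with 287 and 235 with the empty virus against 472 and 398 with SETD5 (0.70 ± 0.12, adjusted p = 0.00278). The fall of Tgfb2, a TGF-beta ligand, held as well, with 91.2 and 154.5 with the empty virus and 54 and 107 with the SETD5 virus (-0.54 ± 0.11, adjusted p = 0.00714). In the Wnt pathway, which holds back fat cell formation, 7 of 17 genes rose and 1 fell (median 0.29). Among its receptors, Fzd7, Fzd2 and Fzd1 rose. Fzd7 had 140.3 and 154 in the empty virus line and 306 and 399.5 in the SETD5 line (1.16 ± 0.12, adjusted p = 0.000184). Fzd2 had 243 and 341 with the empty virus against 369 and 665 with SETD5 (0.75 ± 0.12, adjusted p = 0.00236). Fzd1 had 701.5 and 1308 with the empty virus and 1245 and 1985 with the SETD5 virus (0.70 ± 0.12, adjusted p = 0.00304). For Fzd7 both SETD5 arrays lay above both empty arrays, as in 29.9% of all tested genes, at about 2-fold at each hour. The ligand Wnt5a had 317 and 431 in the empty virus line and 522 and 745 in the SETD5 line (0.73 ± 0.13, adjusted p = 0.00341). Sfrp2, a secreted Wnt binder, had 32.4 and 149.7 with the empty virus against 88.1 and 306 with SETD5 (1.03 ± 0.14, adjusted p = 0.000968). Lef1, the DNA-binding end of the pathway, fell, with 236 and 82 with the empty virus and 120 and 68.2 with the SETD5 virus (-0.55 ± 0.15, adjusted p = 0.0245, 0.313 without the 96 h pair).

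Of 27 growth factors and binding proteins 10 rose and 4 fell (37.0% and 14.8%, median 0.25). The share that fell lay near the 11.4% of all tested genes, of which 15.8% rose. Igf1, which fat cells and their precursors secrete, had 339 and 859 in the empty virus line and 764 and 1471 in the SETD5 line (0.95 ± 0.15, adjusted p = 0.00196). Pdgfa, a mitogen of precursors, had 305 and 257 with the empty virus against 495 and 442 with SETD5 (0.71 ± 0.12, adjusted p = 0.00225). The vascular factors split. Vegfc, a lymphatic growth factor, had 553 and 507 with the empty virus and 959.9 and 822 with the SETD5 virus (0.73 ± 0.13, adjusted p = 0.00307). Vegfb, its relative, had 279.9 and 469 in the empty virus line and 147 and 222 in the SETD5 line (-0.94 ± 0.14, adjusted p = 0.00148), and Vegfa fell as given above. Among insulin signalling genes 2 of 14 rose and 4 fell (14.3% and 28.6%), against 15.8% and 11.4% of all tested genes. Of these 6 calls 0 held without each hour.

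The immune and acute phase lists differed from each other in direction, where over all tested genes 15.8% rose and 11.4% fell. Of 16 complement and acute phase genes 6 rose and 5 fell (median 0.08), the falls led by Hp and the Orm genes. Procr, the protein C receptor, rose with 42.5 and 47.3 with the empty virus against 98.7 and 119 with SETD5 (1.03 ± 0.13, adjusted p = 0.000641). C1ra, a complement protease, rose with 336 and 551.5 with the empty virus and 552 and 863 with the SETD5 virus (0.66 ± 0.13, adjusted p = 0.00461). Among chemokines and cytokines 7 of 12 rose and 0 fell (median 0.53). Ackr3, a scavenging chemokine receptor, had 133 and 183 in the empty virus line and 419.8 and 376 in the SETD5 line (1.26 ± 0.15, adjusted p = 0.000519). Il18, an interleukin, had 82.8 and 72.8 with the empty virus against 138 and 135 with SETD5 (0.70 ± 0.11, adjusted p = 0.00178). In interferon response and antigen processing 6 of 21 rose and 2 fell (median 0.17), and 7 of these 8 calls were lost without the 192 h pair.

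Housekeeping and stress lists differed in how many of their genes were called, beside 15.8% that rose and 11.4% that fell over all tested genes. The shares of proteasome (13.5%), chaperone (12.5%) and amino acid response genes (10.3%) that fell lay near the latter. The share of p53 targets that rose (16.7%) lay near the former. Cytosolic ribosomal proteins gave 0 calls among 43 genes by limma, and 0 of them had an unadjusted p under 0.05 (median 0.05). Of 37 proteasome genes 0 rose and 5 fell (median -0.18), of 36 ribosome biogenesis genes 0 rose and 7 fell (median -0.09), and of 24 chaperone and unfolded protein response genes 0 rose and 3 fell (median 0.03). Of 29 amino acid response genes 1 rose and 3 fell (median 0.01), Cebpg, a C/EBP family member, being the largest with 552 and 559.6 with the empty virus and 240 and 322 with the SETD5 virus (-0.96 ± 0.13, adjusted p = 0.000729). Antioxidant genes split, 4 of 32 higher and 7 lower (median -0.04). Prdx3, the mitochondrial peroxiredoxin, had 1162.5 and 1276 in the empty virus line and 674 and 649 in the SETD5 line (-0.87 ± 0.12, adjusted p = 0.000797). Gpx7, a peroxidase of the endoplasmic reticulum, went the other way with 331 and 424 with the empty virus against 506 and 588 with SETD5 (0.52 ± 0.11, adjusted p = 0.00797). Among p53 targets 3 of 18 rose and 1 fell (median 0.11), with Plk2, a kinase, at 169 and 247 with the empty virus and 338 and 563 with the SETD5 virus (1.04 ± 0.14, adjusted p = 0.000983).

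Among cell cycle genes, calls were few in replication and mitosis and more frequent among G1 genes. The shares to set beside these and the lists below are 15.8% higher and 11.4% lower over all tested genes. In DNA replication 2 of 42 genes rose and 3 fell (median 0.06), in mitosis 2 of 44 rose and 1 fell (median -0.02), and among G1 cyclins and inhibitors 4 of 19 rose and 5 fell (median -0.06). The replication and mitosis medians had opposite signs at the 2 hours, -0.15 and 0.29 for replication and -0.24 and 0.22 for mitosis. None of the 17 calls in these 3 lists held when each hour was left out in turn. Of 24 genes of corepressor and anaphase-promoting complexes, which the study drew on, 2 rose and 1 fell. All 3 of these calls were lost without the 192 h pair. Anapc1 was among the rises, but its probe sets disagreed. By limma with every probe set on its own, the others differed by -0.41 (adjusted p = 0.0233), 0.50 (adjusted p = 0.0213) and 0.12 (adjusted p = 0.524). Of 22 glucocorticoid and clock genes 1 rose and 6 fell (median -0.15), Cry2, a clock repressor, holding with 81.4 and 83.7 in the empty virus line and 46.2 and 38.7 in the SETD5 line (-0.76 ± 0.12, adjusted p = 0.00185). In caveolae 2 of 9 rose and 2 fell (median -0.08), with Ehbp1, which ties membranes to actin, at 208 and 299 with the empty virus against 381 and 623 with SETD5 (0.92 ± 0.12, adjusted p = 0.000729). Tested by limma with every probe set on its own, Cav1 fell (-0.63 ± 0.19, adjusted p = 0.0401). So did Cav2 (-0.90 and -0.80, adjusted p = 0.00591 and 0.0159). The main Cavin2 probe set was not called (-0.39 ± 0.22), whereas its others fell by limma (-1.36 and -1.18, adjusted p = 0.00298 and 0.0103).

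Few genes were called at the start. At 0, 12 and 24 h 8 genes were called (0.0921%), and 6 of the terminal calls were called there in the same direction. The terminal and early differences were apart by test for 916 genes (10.6%). The terminal one was higher for 379 genes (4.37%) and lower for 537 (6.19%). Of the 2367 terminal calls, 889 also had this change in the direction of the call, 364 of the 1373 rises and 525 of the 994 falls, and for the others a change from 0 to 24 h was not shown. Among the largest rises, Atp1b1 had an early difference of 0.65, Pdgfrl of 0.56 and Akr1c14 of 0.55, none of them called there. Among the adipocyte markers it was lower for 13 of 17, and among actin genes higher for 8 of 31. Myl9 stood at 647 at 0 h and 11.3 at 48 h in the empty virus line, at 637 and 37.1 in the SETD5 line, and came back to 404 and 857 at 192 h. Aebp1, a matrix protein of preadipocytes, had 303 and 319 at 0 h and later 78.1 and 69.4 with the empty virus and 172 and 227 with the SETD5 virus (1.25 ± 0.16, adjusted p = 0.000561). Both genes were thus alike in the 2 lines before differentiation.

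Against 36 and 48 h the terminal difference had changed for 206 genes (2.37%). It was higher for 51 genes (0.587%) and lower for 155 (1.79%). Without the 36 h pair 0 were higher by limma (501 at an unadjusted p under 0.05) and 6 lower. Itgbl1, an integrin-like secreted protein, was at 50.6 with the empty virus and 42.3 with SETD5 at 48 h, and then at 471 and 329 in the empty virus line and 1095 and 1054 in the SETD5 line (1.41 ± 0.16, adjusted p = 0.000295). Uap1l1 had 173.5 and 233 with the empty virus against 395 and 633 with SETD5 (1.25 ± 0.16, adjusted p = 0.000729). Prokr1, a prokineticin receptor, had 120.4 and 123.5 with the empty virus and 265 and 285 with the SETD5 virus (1.08 ± 0.15, adjusted p = 0.000892). Each of these 3 genes had at 48 h a difference smaller than at either terminal hour. At 36 h each was lower with SETD5 (-0.73, -0.36 and -0.52, in the order named), which adds to the change. P2ry10b, a receptor gene, had 77.7 and 32.2 in the empty virus line and 153 and 89.8 in the SETD5 line (0.99 ± 0.14, adjusted p = 0.00107) and was lower with SETD5 at 36 h, at 45.4 against 97.6.

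**Figure D5:**
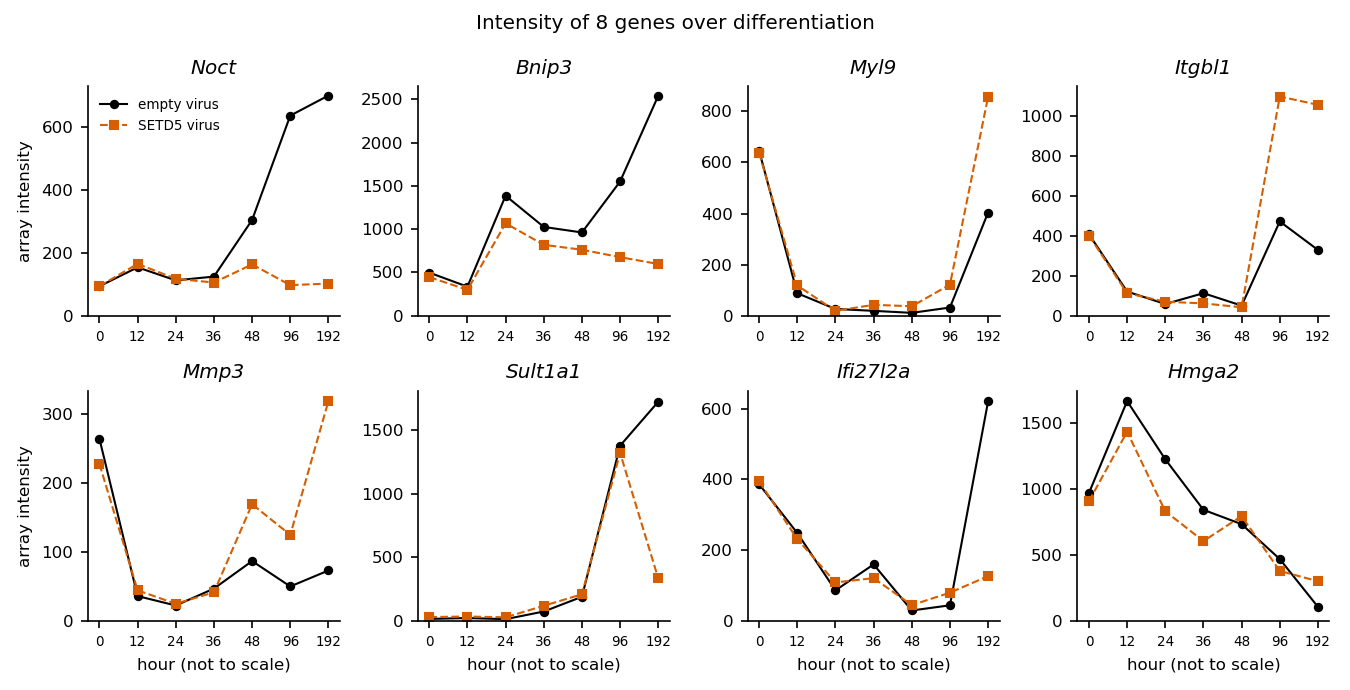
Intensity (vertical axis, linear, each panel from 0) of 8 genes at the 7 hours (horizontal axis, evenly spaced) with the empty virus (black circles) and the SETD5 virus (orange squares), 1 array per point. Noct, Bnip3 and Itgbl1 differ at both terminal hours, whereas Sult1a1 is alike at 96 h (1378 and 1321) and apart at 192 h (1724 and 332).

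The 2 terminal hours were not alike. In 127 genes (1.46%) the virus difference changed between them. It was higher at 192 h than at 96 h for 37 genes (0.426%) and lower for 90 (1.04%), in a test that rests on single arrays. With an offset of 4 in place of 16 limma called 1 higher and 0 lower (559 lower at an unadjusted p under 0.05), and with no filter 0 and 0 (1021 and 1025). Sult1a1, a sulphotransferase, had 1378 and 1724 with the empty virus against 1321 and 332 with SETD5, so the lines matched at 96 h and then parted. Ifi27l2a, an interferon-induced gene, had 43.3 and 621 with the empty virus and 79 and 126 with the SETD5 virus. Sbsn, the secreted protein suprabasin, had 237 and 1418 in the empty virus line and 121 and 137 in the SETD5 line. In both, the empty line climbed between 96 and 192 h and the SETD5 line did so less. Tm7sf2, a sterol reductase, had 90.6 and 539.5 with the empty virus against 69.9 and 71.6 with SETD5.

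Some genes held up better in the SETD5 line. Hmga2, a chromatin protein of growing cells, had 466 and 104 with the empty virus and 376 and 298 with the SETD5 virus, so that at 192 h it was still 298 in the SETD5 line. Plod2, a collagen lysyl hydroxylase, had 208 and 49.4 in the empty virus line and 139 and 118 in the SETD5 line. Both lines lost these mRNAs between 96 and 192 h, the SETD5 line less. Ang3, an angiogenin, had 318 and 0.4 with the empty virus against 51.9 and 4.8 with SETD5. Cxcl13, a chemokine, had 636 and 26.7 with the empty virus and 229.6 and 41.3 with the SETD5 virus. Map7d2, a microtubule-binding protein, had 481 and 9.5 in the empty virus line and 112 and 4.3 in the SETD5 line. For these last 3 genes both lines were under 50 at 192 h, so the change in their difference is the loss of a 96 h gap and its size depends on the 16 added.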

How the data were processed

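Messenger RNA was measured on 14 Affymetrix mouse arrays, 1 per virus and hour. The authors deposited linear intensities, an average difference per probe set, with a 2% trimmed mean of 100 on every array. Detection calls were not used here. Of 45100 probe sets, 64 were controls, 34944 had 1 gene symbol in GEO's platform annotation, 932 carried several and 9160 no symbol, and the last 2 kinds were left out. The probe set with the highest mean stood for a gene. Of 191 called list genes with another tested probe set, 15 had a probe set of the other sign and 1 (Anapc1) a called one.

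Genes at 50 or more on 3 arrays were tested on log2 of intensity plus 16 with limma 3.58.1 (R 4.3.3, lmFit and eBayes, two-sided). The model held hour as a block and a virus effect for 0 to 24 h, 36 and 48 h, and 96 and 192 h (4 residual degrees of freedom, 6.27 added by eBayes). The change from 96 to 192 h came from a model with both hours apart (3, and 6.83 added). Benjamini-Hochberg adjusted p under 0.05 was called. Groups, hours and the pairing by hour come from the labels. Hours stand in for replicates, nothing says that cultures were separate, and the number of arrays limits the precision. The median SD of the virus difference within a window was 0.13, 0.14 and 0.17, in the order of the windows. On simulated data 200 of 200 changed genes were recovered, and 10 unchanged genes were called. There every gene had the same independent noise, and each changed gene had an equal shift at 96 and 192 h. The real differences were not so even, so the simulation checks the code and not the calls on these arrays.

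The members, the 43 gene lists (1260 of 1362 entries on the array) and the tests were chosen with earlier results of these data known, so the lists are described by counts and medians. Named were the 15 largest terminal rises and falls (10 each way outside lipid, mitochondrial and carbohydrate lists) with a mean of 100 or more in 1 virus and 1 sign at both hours, 5 each way for the changes between windows, called list members or the 4 largest of a list, and Setd5, Pparg, Cebpa, Cebpb, Cebpd and Cd36. Promoters came from a RefSeq table and were searched with Python 3.11.15. Alternatives were other normalizations, offsets of 4 and 64, other filters, every probe set on its own, no replicate block, robust variances, other windows and leaving out each hour.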

Additional observations from a re-analysis of the deposited data

Results flagged for a closer look

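The virus difference of some genes was not the same in all windows of hours, by a test of the change itself (limma, adjusted over all tested genes, with SE). Against 0 to 24 h, the terminal difference was higher for Mmp3 (1.47 ± 0.30, adjusted p = 0.0158), Itgbl1 (1.38), Myl9 (1.26), Fbln7 (1.26) and Aebp1 (1.25). It was lower for Cidec (-3.12 ± 0.35, adjusted p = 0.00106), Adig (-3.10), G0s2 (-3.06), Gpd1 (-2.85) and Orm2 (-2.73). With no replicate block all 10 calls were lost. Mmp3 was also lost with no filter and without the 0 or the 192 h pair, and Fbln7 with an offset of 4, with no filter and without the 12, 24 or 192 h pair.

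Against 36 and 48 h, it was higher for Itgbl1 (1.87 ± 0.22, adjusted p = 0.00566), P2ry10b (1.61), Fbln7 (1.51), Uap1l1 (1.34) and Prokr1 (1.28). It was lower for Adig (-2.96 ± 0.22, adjusted p = 0.000605), Klf15 (-2.38), Slc1a3 (-2.34), Hp (-2.33) and Gpd1 (-2.32). With no replicate block all 10 calls were lost. Without the 36 h pair all 5 of the higher calls and those of Klf15 and Slc1a3 were lost. Fbln7, Uap1l1, Prokr1 and Klf15 were lost with no filter, and Fbln7 and Uap1l1 with an offset of 4. Other pairs whose absence lost a call were each except 96 h for Fbln7, 0 and 192 h for Uap1l1, 192 h for Prokr1 and 48 h for Klf15.

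Between the terminal hours the difference was higher at 192 h than at 96 h for Ang3 (2.64 ± 0.28, adjusted p = 0.0113), Cxcl13 (1.83), Hmga2 (1.69 ± 0.31, adjusted p = 0.0353), Map7d2 (1.62) and Plod2 (1.57). It was lower for Ifi27l2a (-2.84 ± 0.34, adjusted p = 0.0114), Tm7sf2 (-2.35), Sbsn (-2.35), Sult1a1 (-2.26 ± 0.25, adjusted p = 0.0113) and Orm2 (-2.24). These 10 rest on 1 array per virus at each of the 2 hours. All 10 calls were lost with no filter, and all but that of Ang3 with an offset of 4. Cxcl13, Hmga2, Map7d2 and Plod2 were lost without the 0 or the 12 h pair and with the next probe set, Sbsn with the next probe set, Tm7sf2 without the 0 h pair and Plod2 under quantile normalization.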

How the results depend on the processing

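The terminal counts (1373 rose, 994 fell) kept within 1.5 times under quantile normalization, a common median, offsets of 4 and 64, a filter of 100, robust variances and 1 window for 0 to 48 h. With no filter 826 rose, with the 4 terminal arrays alone 843 rose and 753 fell, with every probe set on its own 1501 fell, and leaving out each hour gave 280 to 1527 rises and 373 to 1068 falls. Without the replicate block the pairing by hour is lost and 0 rose and 0 fell by limma, with 424 and 572 at an unadjusted p under 0.05. The change over hours is then part of the spread.

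The terminal minus early counts (379 higher, 537 lower) came to 58 and 270 with no filter, to 0 and 0 with no replicate block (100 and 390 at an unadjusted p under 0.05), and to 44 to 927 and 219 to 899 without each hour. Against 36 and 48 h (51 higher, 155 lower) they were 17 and 58 with an offset of 4, 82 higher with an offset of 64, 2 and 13 with no filter, 0 and 0 with no replicate block (41 and 187 at an unadjusted p under 0.05), and 0 to 549 and 6 to 620 without each hour, where 0 higher without the 36 h pair had 501 at an unadjusted p under 0.05. For 192 h minus 96 h (37 higher, 90 lower) they were 1 and 0 with an offset of 4 (559 lower at an unadjusted p under 0.05), 63 and 191 with an offset of 64, 0 and 0 with no filter (1021 and 1025 at an unadjusted p under 0.05), 1 and 14 with every probe set, 74 higher with robust variances, and 1 to 58 and 18 to 119 without each of 0 to 48 h. The fit of 192 h minus 96 h could not be made without either terminal hour or without the block. The cause of these changes was not tested.

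Of 1100 recomputed values of named genes 970 kept direction and call, 129 lost the call and 1 turned, that of Setd5, whose 0.068 ran from -0.022 (adjusted p = 0.948) without the 192 h pair to 0.158 without the 96 h pair. Of 228 recomputed list medians 202 moved by less than the SD of that list's own medians at 96 and 192 h. This SD is wide for a list whose hours differ and is not a sampling error. Lists with a median below 0 numbered 20, and 24 with the arrays scaled to a common median, so the sign of some depends on the scaling. Calls near the threshold are limited by 1 array per virus and hour, and folds of genes under 50 by the offset.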

Other observations

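The 8 genes called at 0, 12 and 24 h, named here after their values were seen (0.0921% of those tested), were 6 higher and 2 lower with SETD5. Rhox5, a homeobox gene, had 38.1, 15.4, 17.9 with the empty virus at 0, 12 and 24 h and 81.9, 73.5, 65.4 with SETD5 (early difference 1.21, adjusted p = 0.0037), and was still higher at 96 and 192 h (0.80 ± 0.15, adjusted p = 0.0038, 0.0502 without the 192 h pair). Cd24a, a cell surface glycoprotein, had 35.8, 257, 157 and 70.6, 561, 335 (early difference 0.95, adjusted p = 0.0037) and kept a terminal difference of 0.95 ± 0.12. Both genes were higher with SETD5 at each of the 7 hours.

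Adamts9, a matrix protease, had 78.1, 109, 128 with the empty virus and 175, 277, 330.5 with SETD5 over the same hours (early difference 1.17, adjusted p = 0.00221). At 96 and 192 h it had 273 and 344.5 with the empty virus against 359 and 354 with SETD5 and was not called (0.21 ± 0.12, adjusted p = 0.236). Islr, Lbp and Rtl8c passed the test as higher, and Ptgfr as lower, both early and at the end, with early differences of 0.69, 0.77, 0.64 and -0.73. The terminal calls of Rtl8c and Ptgfr were lost without the 192 h pair. Sesn2, a stress-induced sestrin, was lower early (early difference -1.09, adjusted p = 0.044) and was not called at the end (-0.53 ± 0.19, adjusted p = 0.0653). Each of the 8 early calls was lost without the 24 h pair, with adjusted p from 0.0606 (Adamts9) to 0.544 (Rtl8c), and those of Islr, Lbp, Ptgfr, Rtl8c and Sesn2 without other pairs as well.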
